A study of Mus musculus with 3 samples.

Results

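The cell cycle genes described here are 36 genes that were chosen by name among the 32285 genes of the count tables, as genes whose transcripts mark DNA replication or cell division. They were followed across the cell types of mouse lung in 3 single-cell RNA libraries. By role, 12 act in S phase (Tyms, Tk1, Rrm1, Rrm2, Mcm2 to Mcm7, Pcna, Pclaf) and 21 act in mitosis or on the way to it (Mki67, Top2a, Cdk1, Ccnb1, Ccnb2, Birc5, Ube2c, Cenpa, Cenpe, Cenpf, Aurka, Aurkb, Bub1, Bub1b, Plk1, Kif11, Kif20a, Tpx2, Nusap1, Prc1, Cdc20). The remaining 3 (Ccna2, Stmn1, Hmgb2) were put in neither group. All 36 were found in the tables under these symbols. A cell was called cycling when its unique molecular identifiers (UMIs, each a tag that marks 1 captured RNA molecule) summed to 3 or more over 5 of the members, Mki67, Top2a, Cdk1, Birc5 and Ccnb2. By this rule 484 of 12458 cells were cycling.

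A cell that divides first copies its DNA in S phase and then parts the copies in mitosis. Genes of S phase, such as the MCM helicase subunits, the sliding clamp Pcna and the nucleotide enzymes Tyms, Tk1, Rrm1 and Rrm2, are transcribed under E2F factors, while genes of mitosis, such as the B-type cyclins, the kinase Cdk1 and the spindle proteins, come on later under the DREAM and MuvB complexes with NF-Y and FOXM1. In the lung, alveolar macrophages are known to keep their number by dividing locally, and alveolar type 2 (AT2) cells are the progenitors of the alveolar epithelium.

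Each library held sorted lung cells pooled from 3 mice, so there was 1 library per group and no spread between mice could be measured. The mice of all groups carried Ccsp-rtTA;TetO-EGFRL858R, a transgene pair in which a club cell promoter drives a doxycycline-dependent activator of a mutant EGFR, and the growth protocol given for all groups was chow with 625 ppm doxycycline. WT Healthy mice had this genotype alone, WT Tumor mice also carried Pparγfl/fl, and PPARγ-/- Tumor mice carried Pparγfl/fl with Csf1rCre, which deletes the floxed gene in cells that express or once expressed the myeloid receptor gene Csf1r. All mice were 16 to 20 weeks old. Cells were sorted by 4 gates, for epithelium (CD45-EPCAM+), T cells (CD45+CD3+), alveolar macrophages (CD45+CD11c+SigF+) and a CD45+CD11b+Ly6G- macrophage gate, and joined in equal parts. The share of a cell type in a library therefore reflects the mixing, and the comparisons below are made within a cell type. The macrophage class can join cells of both macrophage gates, so its makeup of clusters may reflect the mixing as well. The labels do not say how the healthy mice stayed free of tumours.

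The promoters of the members hold the letters that such factors read, and the 2 groups of members differ in which letters they hold. RefSeq promoters (GRCm38.p6, 250 bases before to 50 after the start) were matched to 30 members, and 6 members were not matched (Aurkb, Ccna2, Kif20a, Mcm4, Stmn1, Tpx2). Both strands were searched for an E2F motif (TTTNNCGC, with each N being C or G), for the cell cycle homology region or CHR (TTTGAA or TTCGAA) and for the NF-Y motif (CCAAT). None of the 3 motifs contains another. The E2F motif was in 41.7% of 12 promoters of S-phase members, in 5.26% of 19 promoters of mitotic members and in 2.26% of all 32851 promoters of the table. The CHR letters were in 16.7% of the S-phase, 78.9% of the mitotic and 19.2% of all promoters. CCAAT was in 83.3% of the S-phase, 89.5% of the mitotic and 37.4% of all promoters. CHR and CCAAT stood together in 78.9% of the mitotic promoters against 7.52% of all. The mitotic members Birc5 and Nusap1 and the S-phase members Tk1 and Tyms held none of the 3 motifs in this window. A match describes the sequence and is no measurement of binding. The 250 bases before the start are shown for mitotic members whose levels carry the comparisons below, with CHR and NF-Y letters in capitals, in the direction of transcription and all on the minus strand: Top2a (chr11:99024190-99024439), Ccnb2 (chr9:70421555-70421804), Cdk1 (chr10:69352913-69353162) and Mki67 (chr7:135716380-135716629).
Top2a: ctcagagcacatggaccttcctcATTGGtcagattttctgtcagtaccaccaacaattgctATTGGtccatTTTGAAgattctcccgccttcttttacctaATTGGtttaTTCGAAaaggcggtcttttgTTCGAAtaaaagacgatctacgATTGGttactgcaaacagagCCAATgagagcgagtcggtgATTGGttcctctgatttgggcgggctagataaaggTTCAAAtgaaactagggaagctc
Ccnb2: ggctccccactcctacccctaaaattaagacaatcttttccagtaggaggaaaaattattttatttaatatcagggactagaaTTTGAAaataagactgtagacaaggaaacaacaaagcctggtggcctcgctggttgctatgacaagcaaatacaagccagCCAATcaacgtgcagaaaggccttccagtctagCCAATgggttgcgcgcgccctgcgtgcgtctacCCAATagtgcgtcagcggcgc
Cdk1: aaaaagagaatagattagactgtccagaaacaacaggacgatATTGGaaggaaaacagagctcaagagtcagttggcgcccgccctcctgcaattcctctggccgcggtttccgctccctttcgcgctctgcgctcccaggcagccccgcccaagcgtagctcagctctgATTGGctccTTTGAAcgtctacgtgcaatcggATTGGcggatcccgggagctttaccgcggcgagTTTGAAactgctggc
Mki67: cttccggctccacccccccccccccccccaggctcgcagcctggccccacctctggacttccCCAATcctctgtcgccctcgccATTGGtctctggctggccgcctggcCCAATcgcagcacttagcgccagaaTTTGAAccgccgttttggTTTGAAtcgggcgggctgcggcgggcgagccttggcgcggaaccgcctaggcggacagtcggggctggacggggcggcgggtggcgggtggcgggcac

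Top2a holds the most matches of the 4, with 4 of CHR and 6 of NF-Y. In the whole 300-base window Cdk1 also holds 1 E2F match and is the only matched mitotic member with one. For comparison, the same stretch of 2 helicase genes of S phase is shown with E2F letters in capitals: Mcm6 on the minus strand (chr1:128359706-128359955) and Mcm5 on the plus strand (chr8:75109259-75109508). In both, a pair of E2F matches overlaps on opposite strands, and Mcm6 has a further match downstream.
Mcm6: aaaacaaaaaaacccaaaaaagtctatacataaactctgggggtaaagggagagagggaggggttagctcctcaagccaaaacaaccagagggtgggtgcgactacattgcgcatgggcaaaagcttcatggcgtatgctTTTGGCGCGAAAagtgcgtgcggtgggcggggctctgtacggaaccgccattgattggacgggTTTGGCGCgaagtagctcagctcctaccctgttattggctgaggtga
Mcm5: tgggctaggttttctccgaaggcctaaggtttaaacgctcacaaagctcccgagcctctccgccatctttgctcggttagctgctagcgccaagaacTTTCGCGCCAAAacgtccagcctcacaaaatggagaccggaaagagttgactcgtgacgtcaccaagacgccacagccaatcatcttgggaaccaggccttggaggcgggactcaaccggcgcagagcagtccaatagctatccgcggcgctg

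The libraries held 30454790 UMIs in WT Healthy, 46148658 in WT Tumor and 44548318 in PPARγ-/- Tumor. After filters 2947, 4374 and 5137 cells were kept, with medians of 5667, 4920.5 and 3527 UMIs per cell. The filter on mitochondrial UMIs removed 535, 646 and 415 barcodes. Between 4 and 6 barcodes were shared by each pair of libraries, against 1.9 to 3.31 expected by chance draws of barcodes. Pparg, the targeted gene, was at 190.1 CPM (UMIs scaled to a total that is the same for every library and class) in WT Healthy, 152.5 CPM in WT Tumor and 360.0 CPM in PPARγ-/- Tumor macrophages. These counts come from the 3′ ends of transcripts, and which exons the floxed allele loses is not given in the sources used here, so the level does not check the deletion. Xist was at 1229 CPM over all WT Healthy cells and at 0.169 and 0.292 CPM in the tumour libraries, while the Y-linked Ddx3y was at 0.127, 81.5 and 75.1 CPM. Sex and tumour state therefore cannot be told apart in any comparison with WT Healthy.

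Cycling cells made up several percent of macrophages and dendritic cells in every library, of AT2 cells in the tumour libraries and of B cells in WT Healthy, and were near 0 in monocytes. Macrophages made up 70.4%, 60.7% and 52.4% of all cycling cells in WT Healthy, WT Tumor and PPARγ-/- Tumor. In what follows, 3 values in a row are always in this order. These parts also reflect the mixing, since macrophages were 1043 of 2947, 1322 of 4374 and 1340 of 5137 kept cells. Of dendritic cells 9 of 81 (11.1%, exact 95% binomial interval 5.21 to 20.1%), 27 of 241 (11.2%, 7.51 to 15.9%) and 4 of 79 (5.06%, 1.40 to 12.5%) were cycling, with intervals that overlap. By the S-phase rule the WT libraries differed, at 21% in WT Healthy and 10.4% in WT Tumor, a log2 ratio of -1.02 (-1.96 to -0.04). Of AT2 cells none of 41 was cycling in WT Healthy, which allows a share of up to 7.32%, against 18 of 200 (9.0%, 5.42 to 13.9%) and 10 of 191 (5.24%, 2.54 to 9.42%). The 2 tumour libraries overlap in this share, and the number of healthy AT2 cells is too small to part them from the tumour libraries. Upper limits for a share of 0, here and below, are 3 divided by the number of cells. Of B cells 9 of 77 (11.7%, 5.49 to 21.03%) were cycling in WT Healthy, 2 of 78 (2.56%) in WT Tumor and 4 of 166 (2.41%) in PPARγ-/- Tumor. The log2 ratio of WT Tumor over WT Healthy was -2.19 (-5.44 to 0.084), an interval that includes 0. By the S-phase rule, with 1 of 78 against 9 of 77 cells, it was -3.19 (-8.64 to -0.337). B cells of the tumour libraries were more often shallow. With B cells thinned to a common depth and shallower ones left out, 6 of 73, none of 42 and 3 of 75 were cycling. Endothelial cells had 4 of 233 (1.72%), 11 of 267 (4.12%) and 7 of 429 (1.63%).

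Nonclassical monocytes, blood cells that have left the cycle, serve as a background for the rule. None of 240 and none of 495 was cycling in the WT libraries, which allows up to 1.25% and 0.606%, and 1 of 1033 (0.0968%) was in PPARγ-/- Tumor. Neutrophils, which do not divide once mature, had none of 66 over all libraries, which allows up to 4.55%. Monocytes are shallower than macrophages, with median UMIs of 4023.5, 2628 and 2802 against 12872, 14275 and 16006.5. With each cell thinned to 2000 UMIs, no nonclassical monocyte among 220, 376 and 828 was cycling, while 3.78%, 5.30% and 0.905% of macrophages were. Shallower cells were left out of the thinned values: 10, 40 and 14 macrophages and 20, 119 and 205 monocytes. In free RNA, read from barcodes with 10 to 100 UMIs, the 5 rule genes summed to 171, 179 and 92.3 CPM. In nonclassical monocytes the whole set of 21 mitotic members summed to 50.9, 41.3 and 29.1 CPM. Intervals here and below cover counting error only.

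**Figure D1:**
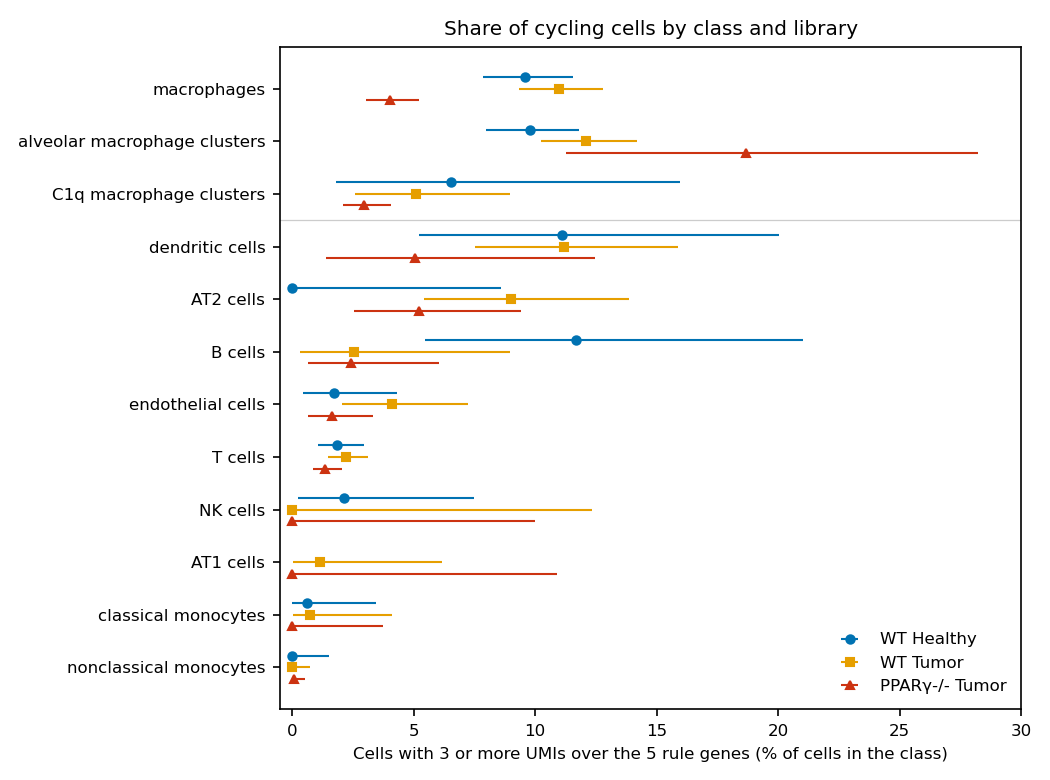
Share of cells with 3 or more UMIs over Mki67, Top2a, Cdk1, Birc5 and Ccnb2 (x axis, percent of the cells of a class) by class (y axis) and library (colour and symbol), with exact 95% binomial intervals. Classes under 28 cells in a library are left out there. Macrophages of PPARγ-/- Tumor (4.03%) lie left of both WT libraries (9.59% and 10.97%), while nonclassical monocytes lie near 0 in all 3.

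Among macrophages, 100 of 1043 cells (9.59%, 7.87 to 11.54%) were cycling in WT Healthy, 145 of 1322 (10.97%, 9.33 to 12.8%) in WT Tumor and 54 of 1340 (4.03%, 3.04 to 5.23%) in PPARγ-/- Tumor. The 2 WT libraries overlap and PPARγ-/- Tumor lies below both. WT Tumor was 1.14 times WT Healthy, with an exact 95% interval of the ratio from 0.881 to 1.49. By 5 other mitotic members it was 1.44 times WT Healthy (7.19% against 4.99%), and there the interval of the log2 ratio, 0.025 to 1.04, excludes 0. PPARγ-/- Tumor was 2.72 times lower than WT Tumor (1.98 to 3.79 times). With 1 library per group no test between conditions can be made, and the intervals hold no spread between mice. A rule built from S-phase members alone (3 or more UMIs over Tyms, Tk1, Rrm2, Pclaf, Mcm5 and Mcm6) marked 10.9%, 10.4% and 2.16% of macrophages, and PPARγ-/- Tumor was then 4.82 times lower than WT Tumor (3.21 to 7.47 times). The intervals of the 2 rules' ratios overlap.

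The macrophages of the 3 libraries fell largely into different clusters, although the cell cycle genes were left out of the clustering. WT Healthy cells sat mostly in a cluster led by Fabp1, Krt79 and Chil3, WT Tumor cells in one led by Ear10, Wfdc21 and Car4, and PPARγ-/- Tumor cells in one led by C1qb, Apoe and C1qa. Clusters with alveolar macrophage markers held 94.2%, 83.7% and 6.79% of the macrophages, and clusters with interstitial or monocyte-derived markers, called C1q clusters here, held the rest. In the alveolar clusters 96 of 982 (9.78%), 134 of 1107 (12.1%, 10.2 to 14.2%) and 17 of 91 cells (18.7%, 11.3 to 28.2%) were cycling. In the C1q clusters 4 of 61 (6.56%, 1.82 to 16.0%), 11 of 215 (5.12%, 2.58 to 8.97%) and 37 of 1249 (2.96%, 2.09 to 4.06%) were. The log2 ratio of PPARγ-/- Tumor over WT Tumor was 0.63 (-0.20 to 1.36) in alveolar and -0.79 (-1.79 to 0.33) in C1q clusters, and both intervals include 0. Within C1q clusters 3 other measures gave intervals that exclude 0. PPARγ-/- Tumor was 4.84 times lower by the S-phase rule (2.27 to 10.2 times, 1.44% against 6.98%). It was 3.87 times lower by a rule of 5 other mitotic members (1.56 to 9.22 times) and 4.97 times lower with cells thinned to 2000 UMIs (1.38 to 17.3 times). The S-phase rule on thinned cells left 2 and 3 cells and an interval that includes 0. Within alveolar clusters the same 3 measures gave log2 ratios of 0.12 (-0.92 to 1.01), 0.20 (-1.06 to 1.24) and -0.08 (-1.75 to 1.22). Within PPARγ-/- Tumor itself, the share was 6.31 times higher in alveolar than in C1q clusters (3.33 to 11.5 times), and 8.39 times higher by the S-phase rule (3.58 to 18.8 times). That pair shares mice and library, and its median depths were 12492 and 16231 UMIs. The lower macrophage share of PPARγ-/- Tumor thus went with a different makeup of clusters and, by 3 of 5 measures, with a lower share within C1q clusters. How far that makeup reflects the mixing of the sorted gates was not tested.

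The members in macrophages are given as CPM over the summed UMIs of all macrophages of a library, and the member's own UMIs stand in brackets. Among S-phase members, Pcna, the sliding clamp that holds the polymerase on DNA, was at 189 CPM (2627), 150.5 CPM (2820) and 82.9 CPM (1801). Mcm7, a subunit of the replicative helicase, was at 67.5 CPM (937), 49.97 CPM (936) and 19.5 CPM (423). Mcm3, another subunit, was at 41.1 CPM (571), 41.8 CPM (783) and 24.7 CPM (537). For all 3 genes PPARγ-/- Tumor was the lowest library. The WT libraries lay close together for Mcm3, while Pcna and Mcm7 were higher in WT Healthy than in WT Tumor. Mcm2 was at 19.8 CPM (275), 12.3 CPM (230) and 6.63 CPM (144), and Mcm6 at 29.0 CPM (402), 18.5 CPM (347) and 5.15 CPM (112). Both helicase genes were highest in WT Healthy and lowest in PPARγ-/- Tumor. Tyms, which makes thymidylate, was at 16.2 CPM (225), 15.1 CPM (282) and 8.24 CPM (179). Pclaf, a Pcna-binding protein, was at 30.8 CPM (427), 51.9 CPM (973) and 7.45 CPM (162), the highest in WT Tumor.

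Among mitotic members, Mki67, the proliferation antigen that coats mitotic chromosomes, was at 121 CPM (1682), 96.0 CPM (1798) and 28.5 CPM (620). Top2a, which untangles sister DNA, was at 82.0 CPM (1139), 92.5 CPM (1732) and 17.6 CPM (383). Cdk1, the kinase that drives entry into mitosis, was at 20.0 CPM (278), 21.1 CPM (395) and 8.88 CPM (193). In each of these genes PPARγ-/- Tumor was low. The WT libraries were near each other for Top2a and Cdk1, while Mki67 was higher in WT Healthy than in WT Tumor. Birc5, or survivin, a member of the chromosomal passenger complex, was at 18.1 CPM (251), 32.9 CPM (616) and 5.11 CPM (111). Ccnb2, a B-type cyclin and partner of Cdk1, was at 18.1 CPM (251), 29.6 CPM (554) and 5.98 CPM (130). Both were higher in WT Tumor than in WT Healthy. Cenpf, a kinetochore protein, was at 37.1 CPM (515), 42.8 CPM (802) and 8.47 CPM (184), and Bub1, a kinase of the spindle checkpoint, at 8.78 CPM (122), 8.81 CPM (165) and 1.20 CPM (26). In neither list, Hmgb2, a chromatin protein, was at 215 CPM, 220.0 CPM and 77.8 CPM. Summed over lists, S-phase members were at 506, 451 and 188 CPM and mitotic members at 567, 607 and 152 CPM.

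**Figure D2:**
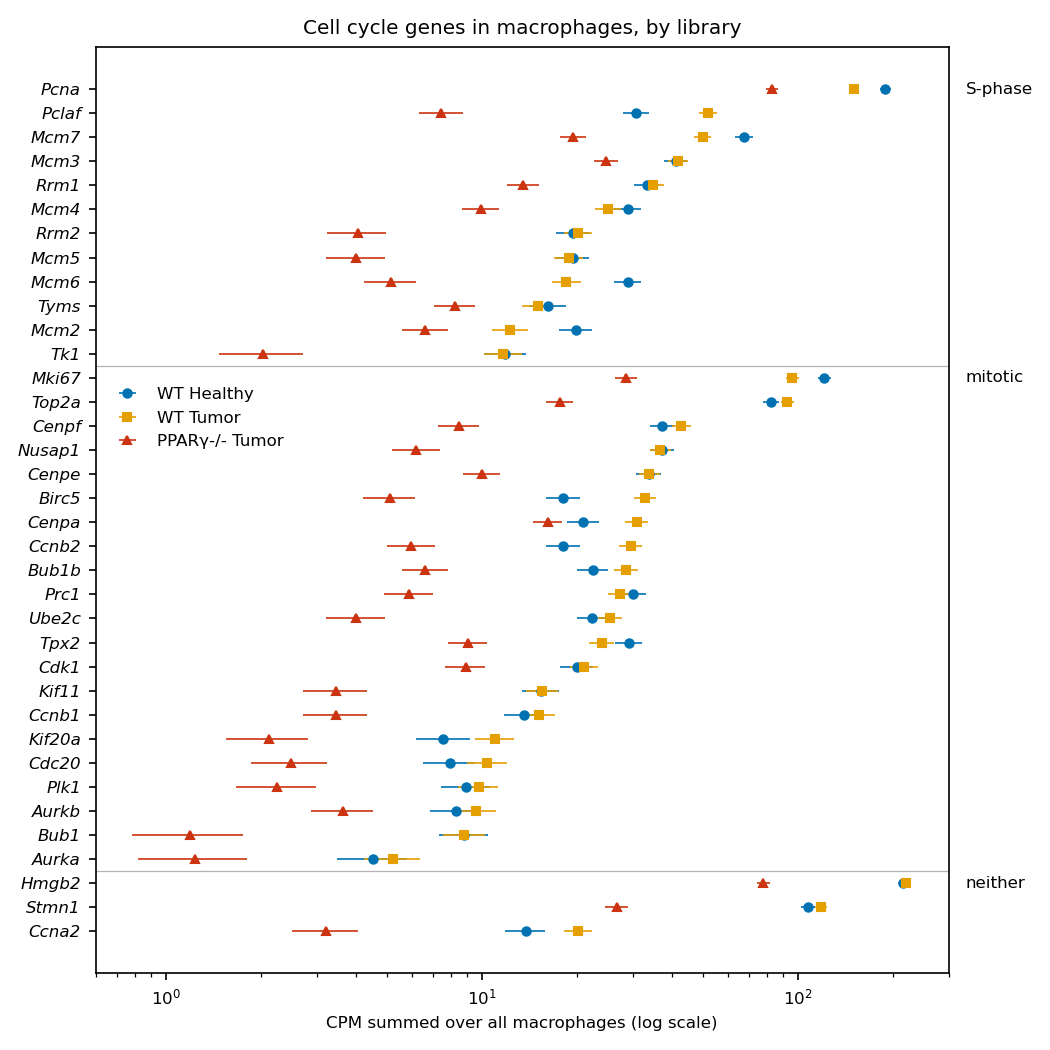
Level of each of the 36 members in macrophages (x axis, CPM summed over cells, log scale; bars are exact 95% Poisson intervals) by library, with S-phase members on top, mitotic members below and the members in neither list last. In every row the PPARγ-/- Tumor point lies left of both WT points, as for Pcna (82.9 against 150.5 and 189 CPM) and Top2a (17.6 against 92.5 and 82.0 CPM).

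Between WT Tumor and WT Healthy macrophages most members differed little. By a rule of size, a ratio of at least 1.5 with an exact 95% Poisson interval that excludes 1, among genes with 20 or more UMIs over both libraries, 3 of 36 members were higher and 2 were lower in WT Tumor. Over all 12277 genes tested, 8.28% were higher and 12.7% lower, so the members' counts lie near that background. The members' median log2 ratio was 0.06 against -0.13 over all genes, with -0.08 for S-phase and 0.17 for mitotic members. The 3 higher members were Birc5 (log2 ratio 0.86, 0.65 to 1.08), Pclaf (0.76, 0.59 to 0.92) and Ccnb2 (0.71, 0.49 to 0.93). Mcm2 (-0.69, -0.95 to -0.43) and Mcm6 (-0.64) were the 2 lower ones. Mki67 (-0.34), Pcna (-0.33) and Mcm7 (-0.43) were below 0 without reaching 1.5-fold. The count depends on the cells kept: at a mitochondrial limit of 5%, 22 members were higher and none lower, with a median of 0.70, against 7.65% and 13.8% of all genes. Scaled without the 5% most abundant genes, 6 were higher and none lower, against 10.5% higher and 8.85% lower of all genes. Poisson intervals treat UMIs as independent draws, while a member's UMIs sit in few cells, so these intervals are too narrow and the shares of cells above are the firmer measure.

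Between PPARγ-/- Tumor and WT Tumor macrophages all 36 members were lower in PPARγ-/- Tumor by the same rule, against 18.4% lower and 11.6% higher of all 12600 genes tested. The median of the members was -2.11 on the log2 scale against -0.16 over all genes, and 31 members were lower by 2-fold or more. Mitotic members stood at a median of -2.14 and S-phase members at -1.37. The lowest ratios were those of Bub1 (-2.88, -3.54 to -2.28), Pclaf (-2.80, -3.05 to -2.56) and Birc5 (-2.69, -2.99 to -2.39), followed by Ube2c (-2.67), which tags proteins for destruction in mitosis, and Ccna2 (-2.65), the cyclin of S phase and G2. Top2a was at -2.39 (-2.56 to -2.23), Ccnb2 at -2.31 (-2.59 to -2.03), Mki67 at -1.75 (-1.88 to -1.62) and Cdk1 at -1.25 (-1.50 to -0.996). The ratios closest to 0 were those of Mcm3 (-0.76, -0.92 to -0.60), Pcna (-0.86, -0.95 to -0.78) and Tyms (-0.87). In all 36 the interval of the PPARγ-/- Tumor level lay under those of both WT libraries. Scaled without the 5% most abundant genes, the median of all genes moved from -0.16 to 0.00, all 36 members stayed lower, and 15% of all genes were higher and 13.2% lower. The comparison shares the WT Tumor library with the one before. This comparison sets mainly C1q cells against mainly alveolar cells, as described above.

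Taken by kind of cluster, the members parted. Within C1q clusters 33 of 36 members were lower in PPARγ-/- Tumor with a median of -1.78, against 20.3% lower and 10.6% higher of all genes. Mki67 was at 23.6 against 82.5 CPM, Top2a at 12.2 against 88.8 CPM and Pclaf at 4.18 against 32.9 CPM, PPARγ-/- Tumor first. All 3 were lower in PPARγ-/- Tumor. Pcna was closer, at 74.99 against 90.9 CPM. The C1q cells of the 2 libraries were different cells too, since WT Tumor had 206 of them in a cluster with Ms4a7 and Mmp12 and PPARγ-/- Tumor had 1190 in one with Spp1, Fn1 and Ecm1. The WT Tumor side held 11 cycling cells. Within alveolar clusters 7 members were lower and 6 higher with a median of 0.14, against 3.65% lower and 5.91% higher of all genes. The 6 higher members were all of S phase and the 7 lower ones all mitotic. All 12 S-phase members lay above 0, with a median of 0.57, and 6 of 21 mitotic members did, with a median of -0.48. There Pcna was at 221 against 157 CPM, Mcm2 at 28.2 against 12.4 CPM, Mki67 at 114 against 97.5 CPM and Top2a at 113 against 92.9 CPM. These 4 were above WT Tumor, while Birc5 was below it, at 13.7 against 33.2 CPM. The PPARγ-/- Tumor side of this comparison rests on 91 cells, 17 of them cycling.

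**Figure D3:**
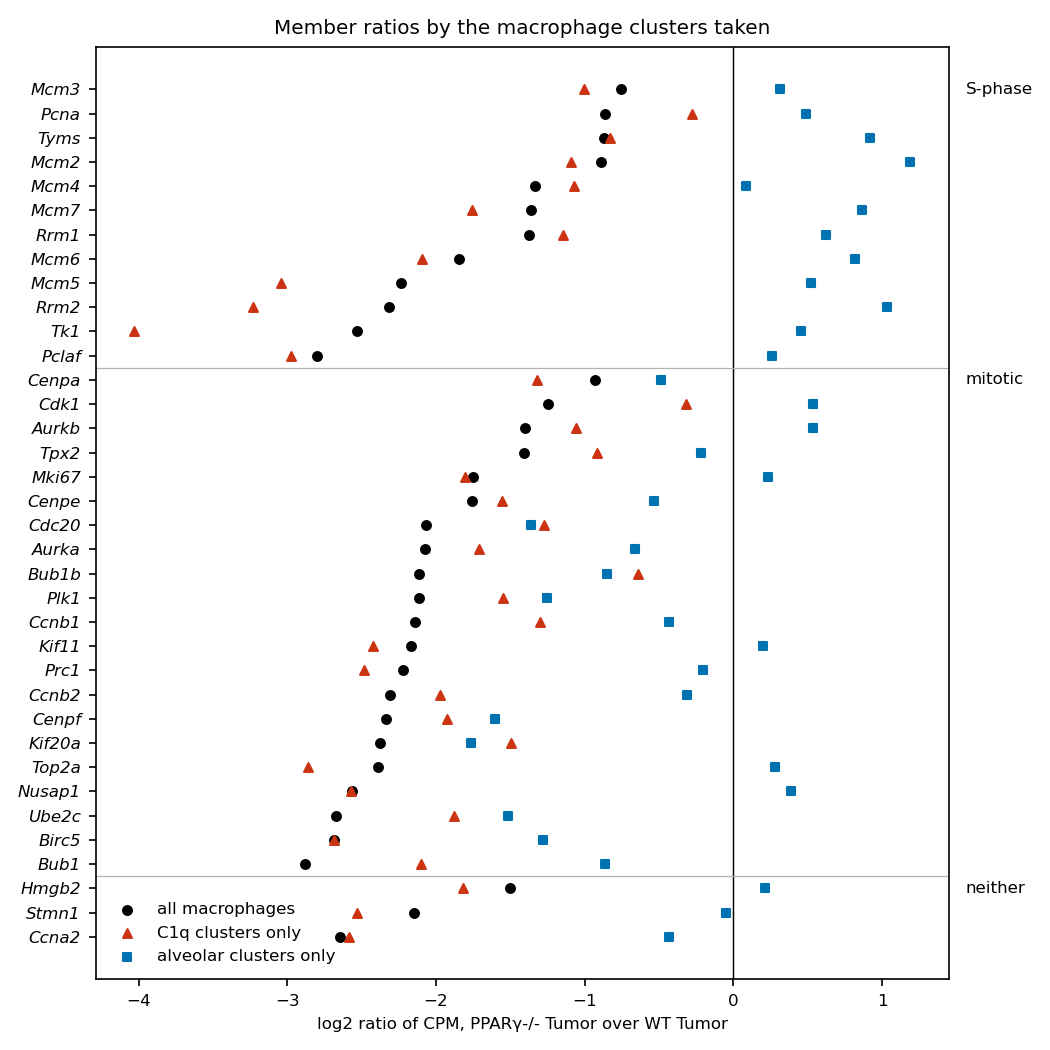
Log2 ratio of CPM, PPARγ-/- Tumor over WT Tumor (x axis), for each member (y axis, grouped by list), over all macrophages (circles), C1q clusters (triangles) and alveolar clusters (squares). All 36 points over all macrophages and over C1q clusters lie left of 0, with medians of -2.11 and -1.78, while those of alveolar clusters lie on both sides, with 17 of 36 below 0.

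The part of a member's UMIs that lay in cells passing the cycling rule differed between the lists. Cycling macrophages held 9.84% of all macrophage UMIs. They held 29.8% of the UMIs of Pcna and 35.2% of Mcm4, but 98.6% of Ccna2, 97.3% of Nusap1, a spindle protein, 97.1% of Bub1 and 96.7% of Cenpf. The concentration of the 5 rule genes is set by the rule and says nothing. The rule takes cells by mitotic members, so the contrast between the lists is also partly set by it. In WT Healthy macrophages it took 100 cells, with 6978 UMIs of mitotic and 3302 of S-phase members. With cells of the S-phase rule added, 152 cells held 7062 and 4227. The contrast was not measured with cells taken by the S-phase rule. Outside the rule the median was 51.7% for 12 S-phase and 92.4% for 16 mitotic members, and 9 S-phase members but only 2 mitotic ones (Bub1b and Cenpa) were under 60%. Rrm2 (94.6%) and Pclaf (94.3%) were the S-phase members as concentrated as mitotic ones. T cells showed the same contrast at medians of 34.8% and 86.4%, where cycling cells held 4.61% of all UMIs. Pcna had a UMI in 75.2%, 71.4% and 66.3% of macrophages, whereas Top2a had one in 12.3%, 12.7% and 5.37%. A single WT Tumor macrophage held 153 of the 1798 UMIs of Mki67.

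**Figure D4:**
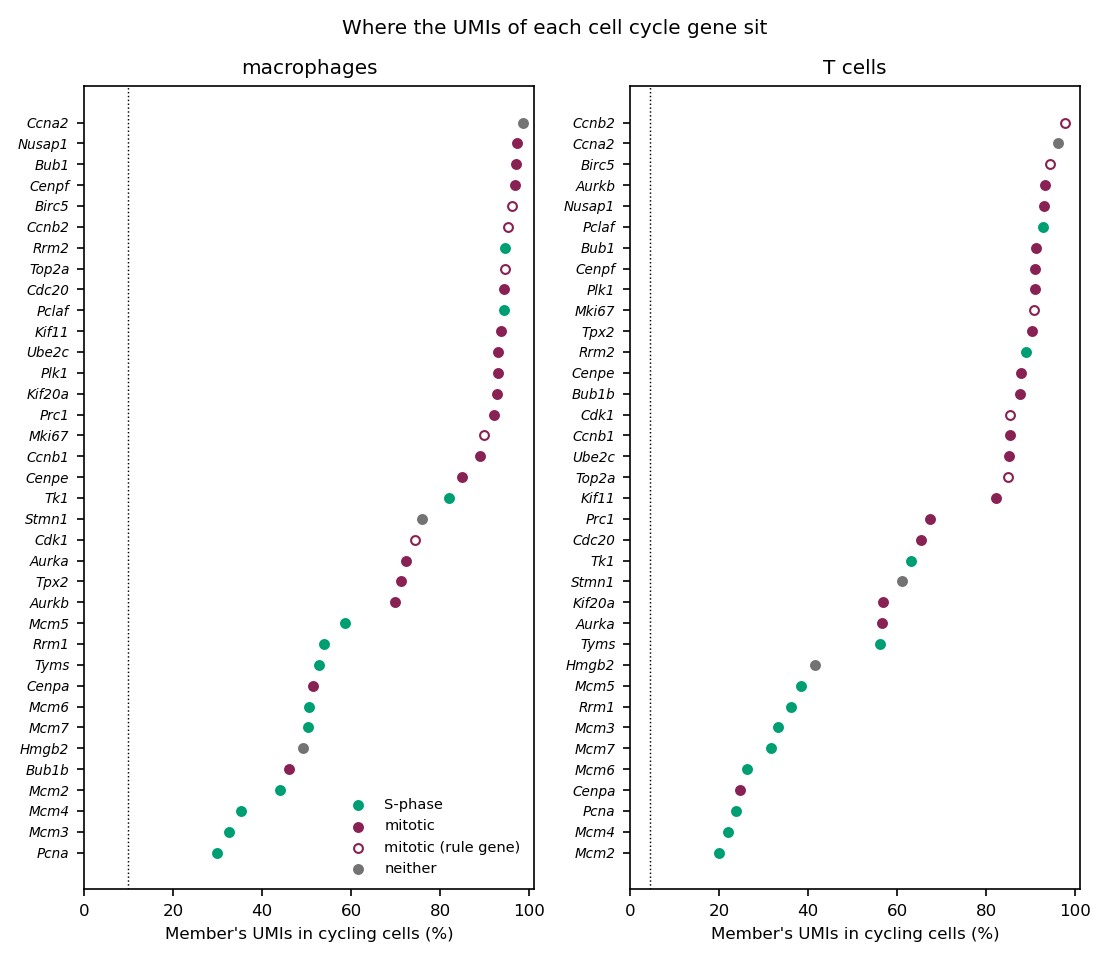
Percent of each member's UMIs that lie in cycling cells (x axis) among macrophages (left) and T cells (right), all libraries pooled; rule genes are open symbols and the dotted line is the cycling cells' part of all UMIs (9.84% and 4.61%). S-phase members lie low, as Pcna at 29.8% in macrophages, and mitotic members high, as Nusap1 at 97.3%. The rule takes cells by mitotic members, which partly sets this order.

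Several members had a smaller part of their UMIs in cycling cells in PPARγ-/- Tumor than in the WT libraries. The same held for all macrophage UMIs, of which cycling cells held 1651312 of 13888294, 2661131 of 18732665 and 1034392 of 21734049. A member's part depends on that baseline, so whether its expression changed was not tested by these values. Cycling cells held 76.5%, 77.2% and 43.0% of the UMIs of Aurkb, a kinase of the chromosomal passenger complex, 74.3%, 79.0% and 46.4% of those of the spindle protein Tpx2, and 57.8%, 63.5% and 29.6% of those of Tyms. Cdk1, whose value the rule acts on, had 83.5%, 85.3% and 38.9%. In macrophages outside the rule Cdk1 was at 5.70 CPM (118 UMIs) in PPARγ-/- Tumor and 3.61 CPM (58 UMIs) in WT Tumor, a log2 ratio of 0.66 (0.19 to 1.14). It was the only member higher there, against 12.0% of all genes, while 20 of 31 measured members were lower, against 16.5% of all genes. The choice of cells with few rule UMIs acts on Cdk1 itself, so this is a description. Among the lower ones, Stmn1, a microtubule regulator, was at 6.135 CPM against 30.43 CPM in WT Tumor, a log2 ratio of -2.31 (-2.60 to -2.03). Between WT Tumor and WT Healthy macrophages outside the rule, 4 of 32 measured members were higher and 4 lower, against 8.14% higher and 13.1% lower of all genes.

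Within cycling macrophages alone, members were still lower in PPARγ-/- Tumor: 29 of 36, with a median of -0.74 against -0.18 over all genes and 14.1% lower and 6.76% higher of all genes. Fewer cells passed the rule, and those that passed held a smaller part of their RNA in members, but the 2 sets of cells differed in makeup. In PPARγ-/- Tumor 37 of 54 cycling macrophages lay in C1q clusters, against 11 of 145 in WT Tumor. The S-phase rule took 29 macrophages and either rule 61 in PPARγ-/- Tumor, against 138 and 182 in WT Tumor. How far the lower levels follow from which cells the cycling rule took was not tested. Bub1 was at -1.38, Pclaf at -1.23 and Birc5 at -1.15, the same 3 genes as over all macrophages. Mki67 was at 438 CPM in PPARγ-/- Tumor against 624 CPM in WT Tumor (-0.51, not past 1.5-fold), and Mcm2 at -0.08. A cycling macrophage held a median of 13, 32 and 7.5 UMIs of mitotic and 20, 14 and 5.5 UMIs of S-phase members. PPARγ-/- Tumor was lowest in both although its cells were the deepest. This order depended on the rule. In macrophages taken by the S-phase rule the medians were 5, 33.5 and 27 UMIs of mitotic and 26.5, 21 and 21 UMIs of S-phase members. By kind of cluster, again by the cycling rule, the median of mitotic members in PPARγ-/- Tumor was 16 UMIs in alveolar and 6 in C1q cells. In WT Tumor the same medians were 29.5 and 39, and in the alveolar cells of WT Healthy it was 15. Between WT Tumor and WT Healthy cycling macrophages 1 member was higher (Birc5, 0.62) and 1 lower (Mki67, -0.60, at 624 against 946 CPM), against 5.96% higher and 11.2% lower of all genes.

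The pooled balance between lists in cycling macrophages was close in the 3 libraries. Per cell, the intervals of the 3 libraries overlapped by the cycling rule, while by the S-phase rule WT Healthy lay below WT Tumor. Pooled over cells taken by the cycling rule, mitotic members made up 67.9% (67.0 to 68.8%), 68.3% (67.5 to 69%) and 68.6% (67.0 to 70.1%) of the UMIs of both lists. Since the rule picks on 5 mitotic members, the value is set partly by it: without those 5 genes it was 52.4%, 53.2% and 53.5%. Among cells taken by the S-phase rule it was 61.7%, 65.5% and 64.3%. Per cell, mitotic members outnumbered S-phase members in 58.0% (47.7 to 67.8%), 67.6% (59.3 to 75.1%) and 70.4% (56.4 to 82.0%) of cells taken by the cycling rule. Without the 5 rule genes they did so in 33.0%, 40.7% and 33.3%, again with intervals that overlap. Among cells taken by the S-phase rule, with the 5 rule genes counted, mitotic members did so in 23.7% (16.2 to 32.6%), 48.6% (40.0 to 57.2%) and 51.7% (32.5 to 70.6%), the lowest in WT Healthy. The pooled value differed between kinds of cluster in PPARγ-/- Tumor, at 49.4% (46.5 to 52.3%) in 17 alveolar and 78.9% (77.1 to 80.6%) in 37 C1q cells. In WT Tumor the same values were 68.0% and 72.1%. Per cell, the intervals of the PPARγ-/- Tumor clusters overlapped. Mitotic members outnumbered S-phase members in 58.8% (32.9 to 81.6%) of the alveolar and 75.7% (58.8 to 88.2%) of the C1q cells. In T cells the pooled part was 60.9%, 66.0% and 49.9% (46.6 to 53.2%), lowest in PPARγ-/- Tumor. The T cell values per cell were 82.4% (56.6 to 96.2%), 66.7% (47.2 to 82.7%) and 59.1% (36.4 to 79.3%), with intervals that overlap. AT2 cells had the highest pooled values, 85.8% in WT Tumor and 83.4% in PPARγ-/- Tumor. The numbers of cells behind these values are small and UMIs of 1 cell are not independent, so the intervals are too narrow.

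**Figure D5:**
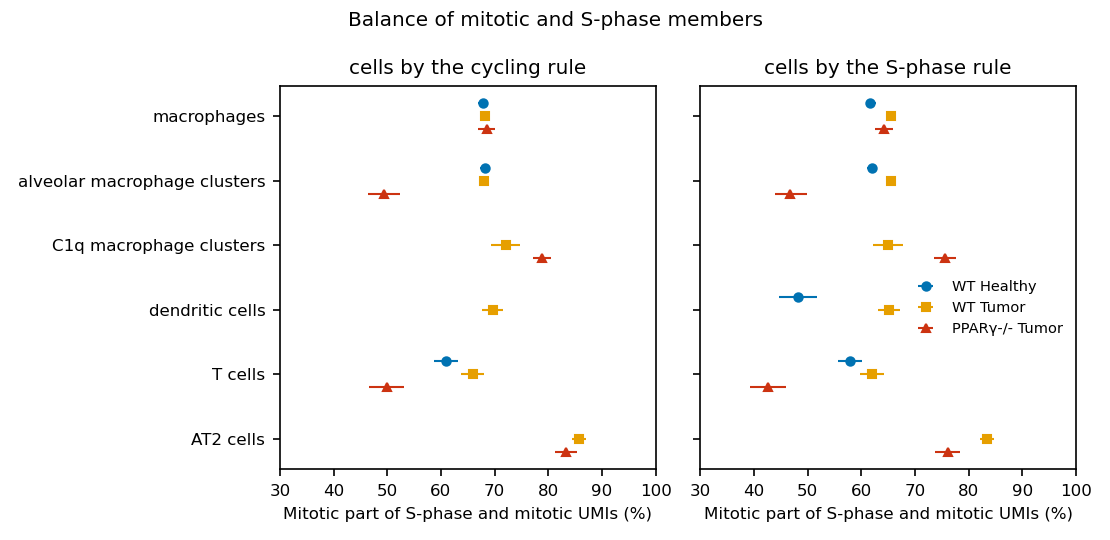
Mitotic members' part of all S-phase and mitotic member UMIs (x axis, percent, from 30 to 100) in cells taken by the cycling rule (left) and by the S-phase rule (right), by class and library, with exact 95% binomial intervals, where at least 10 cells were taken. Macrophages of the 3 libraries coincide near 68% on the left, while the alveolar clusters (49.4%) and T cells (49.9%) of PPARγ-/- Tumor lie lower.

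In T cells the cycling share was lowest in PPARγ-/- Tumor, and whether it parted from WT Tumor beyond counting error depended on the rule. It was 17 of 920 (1.85%, 1.08 to 2.94%), 30 of 1360 (2.21%, 1.49 to 3.13%) and 22 of 1620 (1.36%, 0.853 to 2.05%), with median depths of 3755.5, 3027 and 2692 UMIs. The log2 ratio of PPARγ-/- Tumor over WT Tumor was -0.70 (-1.56 to 0.14), and that of WT Tumor over WT Healthy 0.26 (-0.65 to 1.21). By the S-phase rule PPARγ-/- Tumor was at -0.97 (-1.93 to -0.05), by 5 other mitotic members at -1.53 (-3.04 to -0.19), and with cells thinned to 2000 UMIs at -1.07 (-2.22 to -0.008), all with intervals below 0. By the S-phase rule on thinned cells it was at -0.14 (-1.42 to 1.15). Most cycling T cells sat in 2 clusters: one led by Trbc2, Trbc1 and Thy1 had 7 of 115, 20 of 323 and 13 of 258 cycling, and one led by the effector genes Ccl5, Gzma and Nkg7 had 6 of 37, 8 of 119 and 6 of 152. Of the cluster led by Lef1, Satb1 and Il7r, genes of resting T cells, 2 of 529, none of 503 and 1 of 727 were cycling.

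In T cells the 2 lists differed between the tumour libraries, though the difference itself was not tested. Of 20 measured mitotic members 16 were lower in PPARγ-/- Tumor, with a median of -1.62, but of 12 S-phase members only 1 was (Rrm2), with a median of -0.20. In all, 19 of 35 measured members were lower and none higher, against 4.54% lower and 1.79% higher of all genes. Cycling T cells held a median of 34.8% of the UMIs of S-phase members and 86.4% of those of mitotic members outside the rule. The lists therefore do not depend alike on the cycling share, and how far this sets their contrast was not tested. Mki67 was at 64.9 CPM (240), 64.8 CPM (286) and 29.4 CPM (134), Top2a at 69.8 CPM (258), 61.8 CPM (273) and 34.9 CPM (159), and Birc5 at 21.1 CPM (78), 17.4 CPM (77) and 4.39 CPM (20). Ccnb2 was at 14.9 CPM (55), 12.7 CPM (56) and 3.73 CPM (17), and Cdk1 at 7.84 CPM (29), 7.93 CPM (35) and 2.41 CPM (11). The WT libraries were alike in these genes and PPARγ-/- Tumor was lower. Ccnb1, the other B-type cyclin, had the lowest ratio, -3.09 (-5.05 to -1.60), from 33 and 4 UMIs. In contrast Mcm7 was at 65.7 CPM (243), 69.8 CPM (308) and 66.3 CPM (302), close in all 3. Pcna was at 112 CPM (415), 84.0 CPM (371) and 72.8 CPM (332), and Mcm3 at 30.3, 38.0 and 33.3 CPM. Between WT Tumor and WT Healthy 4 members were lower (Rrm2, Ccna2, Prc1, Tyms) and none higher, against 4.13% and 7.28% of all genes.

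In AT2 cells, too, mitotic members were lower more often than S-phase members between the tumour libraries, again untested as a difference. Of 21 mitotic members 19 were lower in PPARγ-/- Tumor, with a median of -1.13, and of 12 S-phase members 3 were, with a median of -0.23. Over all members 23 of 36 were lower and none higher, against 6.12% lower and 3.46% higher of all genes. In WT Tumor, cycling AT2 cells held 2669 of 2788 UMIs of mitotic and 443 of 810 UMIs of S-phase members. In PPARγ-/- Tumor they held 1126 of 1251 and 224 of 611. How far these parts set the contrast between the lists was not tested. Top2a had 0, 404 and 153 UMIs in AT2 cells, which in the tumour libraries is 125 and 51.5 CPM. Mki67 had 0, 329 and 151 UMIs, or 102 and 50.8 CPM. WT Tumor was the higher of the 2 libraries in both genes. In WT Healthy, with 41 AT2 cells, both genes had no UMI, whereas Pcna was at 44.7, 54.4 and 49.8 CPM and near equal in all 3. The values rest on 18 and 10 cycling cells, whose shares overlap. The direction of the share depended on the rule. By 5 other mitotic members, 16 of 191 AT2 cells (8.38%) passed in PPARγ-/- Tumor and 13 of 200 (6.5%) in WT Tumor. That log2 ratio was 0.37 (-0.78 to 1.54), while by the S-phase rule it was -0.87 (-2.01 to 0.19).

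Dendritic cells showed few such differences. Between PPARγ-/- Tumor and WT Tumor 3 of 34 measured members were higher (Kif20a, Ube2c, Birc5) and 1 lower (Aurkb), against 2.83% and 4.49% of all genes. Birc5 was at 21.9, 32.7 and 52.9 CPM. Mki67 was at 193.5, 125 and 86.3 CPM, so the 2 members ran in opposite order. Between WT Tumor and WT Healthy 6 of 33 measured members were lower, against 7.89% of all genes, and none was higher, against 7.19%. In B cells Mki67 was at 279 CPM (152 UMIs) in WT Healthy, 27.2 CPM (7) in WT Tumor and 72.2 CPM (35) in PPARγ-/- Tumor. The healthy value rests on 9 cycling cells. In nonclassical monocytes Mki67 was at 2.46, 1.85 and 2.17 CPM, while Pcna was at 148, 98.6 and 101.3 CPM and Hmgb2 at 392, 315.5 and 393 CPM. These cells thus held Pcna and Hmgb2 RNA with almost none of the mitotic members.

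Further lists of cell cycle genes outside the 36 were read in the same way for macrophages, PPARγ-/- Tumor against WT Tumor, beside the same 18.4% lower and 11.6% higher of all genes. Of origin licensing and firing genes 10 of 10 measured were lower, with a median of -1.23, among them Gmnn, the inhibitor of licensing (38.6, 39.8 and 20.98 CPM), and Cdt1, the licensing factor (39.0, 25.5 and 10.4 CPM). Of replication fork and nucleotide genes 11 of 12 were lower (-1.17), as Lig1, the ligase that joins Okazaki fragments (40.7, 30.8 and 11.1 CPM). Of other mitotic genes 41 of 47 were lower (-1.84), among them the condensin subunit Smc4 (216, 144 and 96.0 CPM), while the tubulin Tuba1b (481, 520.2 and 429 CPM) was near even. Of 11 E2F, RB and mitotic transcription factor genes 6 were lower (-0.90), with E2f1 at 36.7, 26.2 and 21.2 CPM. Cyclins and kinases of G1 and S had 7 of 8 lower (-1.18): Ccnd2, a D-type cyclin, was at 413, 182 and 12.2 CPM, and Ccnd3 at 66.8, 96.1 and 36.4 CPM. Their partner kinase Cdk6 was at 161, 86.5 and 55.03 CPM. Cdk4, the other partner, went the other way at 32.6, 36.7 and 49.97 CPM, without reaching 1.5-fold.

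Of 7 kinase inhibitor genes 4 were lower and none higher (-0.64). Cdkn1a, or p21, was at 193, 162 and 113 CPM and Cdkn1b, or p27, at 76.7, 38.9 and 24.9 CPM. Cdkn2a was named after its values were seen: it was at 1.51 CPM (21 UMIs) in WT Healthy, 23.0 CPM (431) in WT Tumor and 0.690 CPM (15) in PPARγ-/- Tumor, so it was high in WT Tumor alone. Of 9 quiescence and anti-proliferative genes 2 were lower and 2 higher (-0.08). Btg1, an anti-proliferative gene, was at 1218, 1102 and 1001 CPM, and its relative Btg2 at 235, 142 and 73.8 CPM.

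The genes outside these lists that were most like the members, by the ratio of CPM in cycling over other macrophages with 50 or more UMIs in cycling cells, were Depdc1a, Kif14, Hist1h3c, Kif18b, Ska1, Esco2, Lrr1, Kntc1, Pimreg and Aspm. The ratio, over all 3 libraries together, ran from 210.0 for Aspm to 1760 for Depdc1a, which had 192 UMIs in cycling and 1 in other macrophages. Aspm, a spindle pole protein, was at 15.6, 13.5 and 2.53 CPM in macrophages. All 10 were lowest in PPARγ-/- Tumor. They were chosen for lying almost only in cycling macrophages, whose share was smallest in that library, so this order is largely set by the choice.

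Cycling macrophages held the markers of macrophages. Clusters were named from these same marker lists, for macrophages and T cells alike, so this is largely set by the naming. Of 12 alveolar macrophage markers 12, 12 and 11 were above 0 (Krt79 was at 0 in PPARγ-/- Tumor), and their sum was 18650, 16410 and 13270 CPM in cycling against 21170, 19660 and 13750 CPM in other macrophages. The 13 interstitial or monocyte-derived markers, of which 10, 12 and 11 were above 0, summed to 1636, 2564 and 11620 CPM in cycling and 2366, 4538 and 19030 CPM in other cells. That list was lower in cycling than in other macrophages in each library. The 12 T cell markers summed to 46.6, 102 and 1.93 CPM in cycling macrophages and to 67.3, 37.5 and 41.9 CPM in the others. The doublet caller marked 1, 2 and 1 of the cycling macrophages. Cycling T cells held all 12 T cell markers in each library, at sums of 4820, 4960 and 5751 CPM. The alveolar macrophage markers summed to 1172, 223 and 132 CPM in cycling and 189, 331 and 209 CPM in other T cells, so in WT Healthy the cycling T cells held more of them, and the part of macrophage RNA in those 17 cells was not tested. The Treg factor Foxp3 had a UMI in 4 of 17, 10 of 30 and 1 of 22 of them. Lef1, a gene of resting T cells, was at 103, 125 and 171 CPM in cycling and 606, 415 and 454 CPM in other T cells, lower in the cycling cells of each library.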

How the data were processed

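The files hold UMI counts per gene and barcode, deposited as raw, unfiltered matrices. The tools and build named per the submitters' processing notes are Seurat 4.0.1, Cell Ranger 6.0.1 and mm10, with no further settings given in the sources used here. The members and gene lists were chosen with earlier results of these data known. Barcodes were kept with at least 1000 UMIs, at least 500 genes and at most 10% mitochondrial UMIs. Cells were clustered with scanpy 1.11.5 (2000 variable genes, 30 principal components, 15 neighbours, Leiden resolution 1.0) without 450 cell cycle genes and 7 sex-linked or targeted genes, and 28 clusters were named from 20 marker lists; thresholds for naming were set after the clusters were seen, and a difference may come from these rebuilt names. Doublets marked by Scrublet (53, 106 and 142 cells) were kept, and an alternative without them gave the same counts of members higher and lower. CPM scale the summed UMIs of a class to a common total. Shares have exact Clopper-Pearson intervals, levels exact Poisson intervals and ratios exact conditional binomial intervals, all at 95% and for counting error only (scipy 1.17.1). No p-value was computed, because each group is 1 library. The interval code was checked on simulated counts. Genes printed in full were the 5 rule genes, the 3 members of each list with the most UMIs, and the 3 highest and 3 lowest ratios of each macrophage comparison; up to 4 genes per further list had the most UMIs in cycling cells, and other genes named were chosen after their values were seen. Alternatives varied the rule, depth, filters, clustering, scaling and clusters taken. Of the quiescence and anti-proliferative list, 1 gene is counted but its values are not reported here.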

Additional observations from a re-analysis of the deposited data

Results flagged for a closer look

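The cycling share of macrophages lay in opposite directions by kind of cluster, PPARγ-/- Tumor over WT Tumor: the log2 ratio was 0.626 in alveolar clusters and -0.788 in C1q clusters. Both intervals include 0 by this rule. In C1q clusters PPARγ-/- Tumor was lower with an interval that excludes 0 by the S-phase rule (4.84 times, 2.27 to 10.2), by 5 other mitotic members (3.87 times, 1.56 to 9.22) and thinned (4.97 times, 1.38 to 17.3). The difference between the 2 kinds was not tested.

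Barcodes that the mitochondrial limit removed, which enter no comparison, also held cycling cells: 23 of 535 (4.299%) in WT Healthy, 33 of 646 (5.108%) in WT Tumor and 15 of 415 (3.614%) in PPARγ-/- Tumor. Their cell types were not assigned.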

How the results depend on the processing

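No paired analysis was possible because each group is 1 library. The log2 ratio of the cycling share of macrophages, PPARγ-/- Tumor over WT Tumor, was -1.45 as reported. It was -0.75 with 2 or more rule UMIs, -1.94 with 5 or more, -2.07 with 5 other mitotic members, -2.27 by the S-phase rule, -2.55 with cells thinned to 2000 UMIs and -0.79 in C1q clusters only. In alveolar clusters only it reversed to 0.63, on 91 PPARγ-/- Tumor cells. The ratio of WT Tumor over WT Healthy, 0.19, was -0.36 in C1q clusters only, 0.53 (0.025 to 1.04) with 5 other mitotic members and 0.49 (-0.10 to 1.10) thinned. The T cell values stayed within the reported intervals. For PPARγ-/- Tumor over WT Tumor in T cells, -0.70 with an interval that includes 0, the interval excluded 0 with 2 or more rule UMIs (-0.72), 5 other mitotic members (-1.53), the S-phase rule (-0.97) and cells thinned to 2000 UMIs (-1.07), and the value was 0.019 with cell cycle genes kept in the clustering. The cluster-kind alternatives, and the one without the cluster that held most marked doublets, were chosen after seeing the data.

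Members higher in WT Tumor than WT Healthy macrophages, 3 as reported, numbered 0 at a 2-fold minimum, 6 when scaled without the 5% most abundant genes, 22 at a mitochondrial limit of 5%, 10 with cell types given per cell, 5 thinned and 18 in C1q clusters only. Members lower, 2 as reported, numbered 0 at 2-fold, in that scaling, at that limit and in C1q clusters. Against WT Tumor, 6 were higher and 7 lower in PPARγ-/- Tumor in alveolar clusters only, in place of 0 and 36. At 2-fold 31 were lower.

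The mitotic part in macrophages was 52.4%, 53.2% and 53.5% without the 5 rule genes, 70.1%, 69.8% and 70.4% with 5 or more rule UMIs, and 61.7%, 65.5% and 64.3% by the S-phase rule. In T cells it was 41.4%, 49.9% and 27.7% without the rule genes and 57.9%, 62.0% and 42.6% by the S-phase rule.

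Of 642 values of single members under an alternative, 400 stayed within their interval, 222 moved beyond it and 20 reversed. Mcm6, WT Tumor over WT Healthy, reversed to 0.35 at the 5% mitochondrial limit. The others reversed, PPARγ-/- Tumor over WT Tumor, in alveolar clusters only: Mki67 0.23, Top2a 0.28, Cdk1 0.53, Tyms 0.92, Tk1 0.46, Rrm1 0.62, Rrm2 1.04, Mcm2 1.19, Mcm3 0.31, Mcm4 0.082, Mcm5 0.52, Mcm6 0.82, Mcm7 0.86, Pcna 0.49, Pclaf 0.26, Aurkb 0.54, Kif11 0.20, Hmgb2 0.21 and Nusap1 0.39. The causes were not tested. The number of cells limits several classes, as with 41 AT2 cells in WT Healthy.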
